A study of Mus musculus with 6 samples.

Results

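The genes described here are the receptors for acetylcholine and the enzyme that ends its action, as measured in RNA from the basolateral amygdala of male mice. They are 10 of the 26264 gene symbols counted in the series and were chosen by name: the 5 muscarinic receptors Chrm1 to Chrm5, the nicotinic receptor subunits Chrna4, Chrna5, Chrna7 and Chrnb2, and acetylcholinesterase, Ache. The series compared mice under chronic restraint stress (CRS), in which mice are confined again and again over a period, with mice that were not stressed (Ctrl), with 3 libraries in each group that the labels call biological replicates. All 6 libraries were total RNA depleted of ribosomal RNA, and all animals were male. The sources used here give neither strain nor age, nor how long the stress lasted, nor whether each library is 1 animal, so the tests measure the spread between libraries.

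Acetylcholine reaches the basolateral amygdala mainly from cholinergic neurons of the basal forebrain, and this input is known for its part in fear learning and arousal. Muscarinic receptors act through G proteins: M1, M3 and M5 couple to Gq and phospholipase C, and M2 and M4 couple to Gi/o, which inhibits adenylyl cyclase. Nicotinic receptors are cation channels of several subunits, of which the alpha4 and beta2 subunits together form the main high-affinity receptor of the brain and alpha7 forms a channel on its own.

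The libraries held 9859449 to 10233706 counts in genes, so 1 CPM (a gene's count scaled to the size of its library) is about 10 reads. The tissue label was set against 10 markers of glutamatergic neurons of the basolateral amygdala and cortex, all of which had counts in every library. Slc17a7, the vesicular glutamate transporter of cortical-type neurons, was at 1087 ± 107 CPM in CRS and 911 ± 184 CPM in Ctrl (SD, n = 3 each). The libraries also differed in markers of neighbouring tissue. The summed level of 11 choroid plexus and ependymal markers was 16.7, 6080 and 29.1 CPM in CRS 1 to 3 and 2387, 4227 and 48.7 CPM in Ctrl 1 to 3. That of 19 striatal and central amygdala markers was 571, 1305 and 1508 CPM in CRS and 2622, 1378 and 1663 CPM in Ctrl, and CRS 1 was the lowest library for 19 of the 19. Oligodendrocyte markers summed to 1783 to 2563 CPM in CRS and 2283 to 3613 CPM in Ctrl, with 11 of 11 lower on average in CRS.

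All 10 genes were detected in every library, and all 10 passed the filter on low counts. Chrm1 had the most counts of the 10, at 2073, 2139 and 2213 in CRS 1 to 3 and 1745, 2012 and 2015 in Ctrl 1 to 3. Chrm5 had the fewest over the libraries together, with 48, 29 and 34 counts in CRS and 45, 36 and 11 in Ctrl. Levels of different genes are compared below as CPM per kilobase of exon, using exon lengths of GENCODE M21 on GRCm38, an older build than that of the counts.

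**Figure D1:**
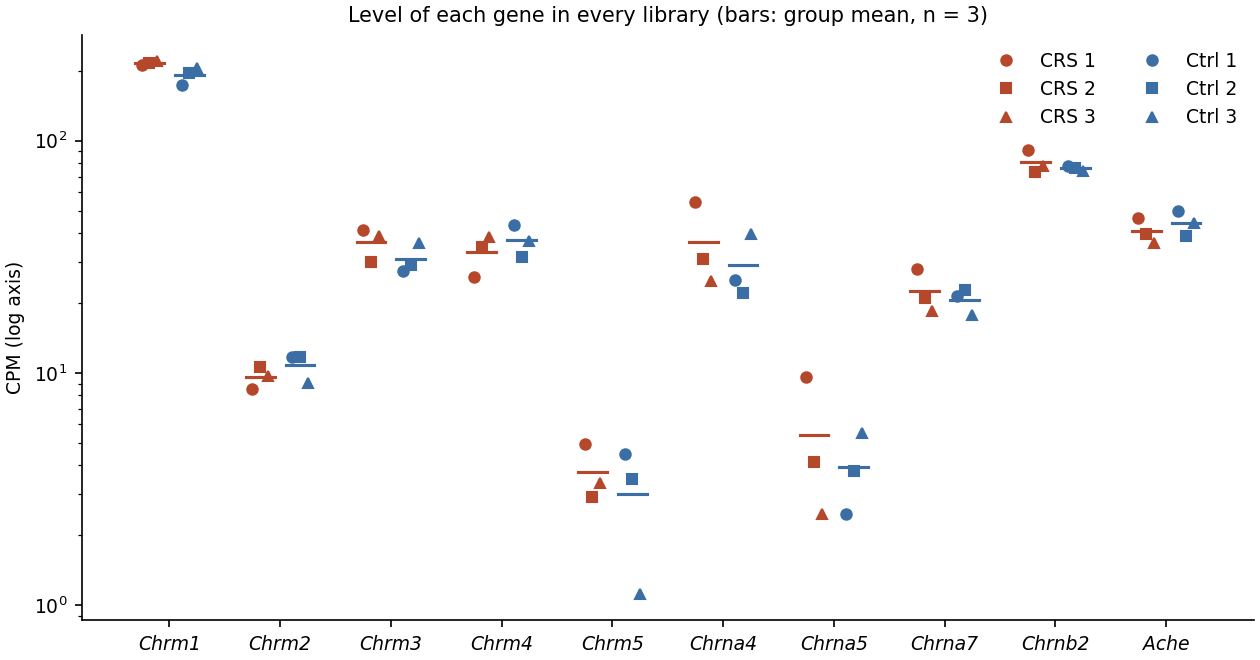
Level of the 10 genes in CPM (log axis) in each CRS library (red, left of each pair) and each Ctrl library (blue, right), with a bar at each group mean (n = 3). Chrm1 is the gene with the most reads, at 173 to 219 CPM, and its 3 CRS values lie above its 3 Ctrl values, while the groups overlap in the 9 others.

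Per length, Chrm1 was the most abundant of the 10, at 32.4 ± 2.74 CPM per kilobase over all libraries (SD, n = 6), above 85.8% of the 14088 tested genes with a length. Chrm4 followed at 24.4 ± 4.19 and Ache at 19.5 ± 2.38 CPM per kilobase. In the middle of the order stood Chrnb2 at 12.2 ± 1.03, Chrna7 at 10.4 ± 1.75, Chrm3 at 7.80 ± 1.31 and Chrna4 at 7.21 ± 2.69 CPM per kilobase. Chrna5 at 2.49 ± 1.43, Chrm5 at 2.11 ± 0.833 and Chrm2 at 1.80 ± 0.237 CPM per kilobase were the least abundant, Chrm2 above 16.5% of tested genes. M1 thus had the highest mean of the muscarinic receptors on each length used. The order of the nicotinic subunits depended on the length: Chrnb2 was above Chrna7 here, but below it at 9.38 against 10.4 CPM per kilobase with exons of the GENCODE basic transcript set, and Chrna7 was above Chrna4 here but below it per coding length.

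Few steps of this order held in all 6 libraries. Ache was above Chrnb2, Chrnb2 above Chrna7 and Chrna4 above Chrna5 in 6 of 6 libraries. Of these, only Ache and Chrnb2 had ranges over the libraries that did not overlap. Chrm1 was above Chrm4 in 5 of 6, the exception being Ctrl 1, where Chrm4 was at 30.1 and Chrm1 at 27.6 CPM per kilobase. Chrna5, Chrm5 and Chrm2 did not differ beyond their spread: Chrna5 was above Chrm5 in 3 of 6 libraries and Chrm5 above Chrm2 in 4 of 6. The lengths matter too. The gene models used here give Chrm4 1440 bases and Chrm5 1599 bases, nearly all coding (1437 and 1596 bases), while Chrm1 has 6271 bases of exon of which 1380 are coding, so a longer model in the authors' counting would place Chrm4 and Chrm5 lower. With coding length alone Chrm1 remained first, Chrnb2 came next and Chrm4 after it.

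**Figure D2:**
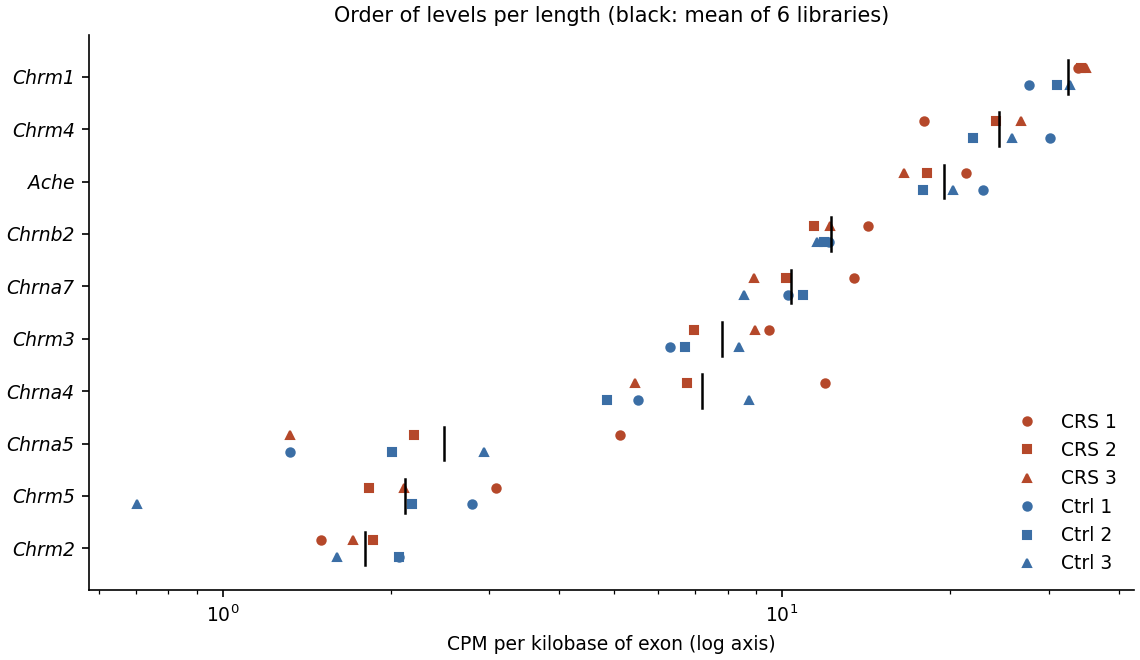
Level of each gene per kilobase of exon (log axis), in order of the mean over 6 libraries (black bar), with each CRS library in red in the upper row of a gene and each Ctrl library in blue in the lower row. Chrm1 has the highest mean, at 32.4 CPM per kilobase, and Chrna5, Chrm5 and Chrm2 overlap at the low end.

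Chrm1 encodes the M1 receptor, the main muscarinic receptor of cortical-type projection neurons. It was measured at 213, 215 and 219 CPM in CRS 1 to 3 and at 173, 195 and 206 CPM in Ctrl 1 to 3. Every CRS library lay above every Ctrl library. The coefficient of variation was 8.64% in Ctrl and 1.63% in CRS, the latter below the counting error of 2.22% at the mean count of Chrm1. The means were 216 ± 3.51 CPM in CRS and 191 ± 16.5 CPM in Ctrl (SD, n = 3 each). On the log2 scale the fold change, CRS minus Ctrl, was 0.17 ± 0.07 (SE, 95% interval 0.0046 to 0.34), which is 1.13-fold. It did not pass the threshold over all genes (adjusted p = 0.997, edgeR's quasi-likelihood test). The same adjusted p held for each of the 10 genes, and DESeq2 and limma-voom also called 0 of the 10. In GENCODE M21, 329 bases of Chrm1 exons (5.07%) lie opposite Gm22820, a gene without a row in the counts.

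Chrm1 was the only one of the 10 whose groups did not overlap and the only one with an unadjusted edgeR p under 0.05. Over all 14739 tested genes, 8.28% had groups that did not overlap, 3.8% with CRS higher and 4.48% with CRS lower. Such a p was found for 3.29%, 1.3% higher and 1.99% lower in CRS, and 0% were called at an adjusted p under 0.05. With 10 genes a count of 1 is the smallest above 0, which is too few to set against these shares. The mean log2 level of the glutamatergic markers relative to the Ctrl mean was 0.66, 0.04 and -0.03 in CRS 1 to 3 and -0.28, -0.08 and 0.35 in Ctrl 1 to 3. Ctrl 1 was the lowest library for these markers as for Chrm1, and their groups overlapped, with CRS 2 and CRS 3 below Ctrl 3. All 10 markers had a log2 fold change above 0 (median 0.23), against 48.4% of all tested genes. Their part in the Chrm1 values was not tested. Leaving out 1 library at a time gave Chrm1 values from 0.11 (without Ctrl 1) to 0.23 (without Ctrl 3).

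Chrm3, the other Gq-coupled receptor with a clear level here, was at 41.1, 30.2 and 38.9 CPM in CRS and 27.4, 29.1 and 36.3 CPM in Ctrl. The groups overlapped, since CRS 2 lay among the controls and Ctrl 3 among the stressed libraries. The estimate on the log2 scale was 0.25 ± 0.15 (SE, 95% interval -0.10 to 0.59). Chrm5, which encodes a receptor best known from midbrain dopamine neurons, was at 4.92, 2.92 and 3.37 CPM in CRS and 4.47, 3.49 and 1.12 CPM in Ctrl. Ctrl 3 stood apart at the low end with its 11 reads. Its estimate was 0.30 ± 0.46 on the log2 scale (-0.78 to 1.38), and -0.09 without Ctrl 3.

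Chrm4 encodes the M4 receptor, which is abundant in projection neurons of the striatum. It was at 25.8, 34.7 and 38.5 CPM in CRS 1 to 3 and at 43.4, 31.6 and 37.1 CPM in Ctrl 1 to 3. CRS 1 was the lowest library and Ctrl 1 the highest, and the other 4 lay between them. The log2 fold change was -0.18 ± 0.17 (SE, 95% interval -0.58 to 0.22; adjusted p = 0.997, edgeR). It was -0.03 without CRS 1, -0.05 without Ctrl 1 and 0.09 without both. Leaving out the lowest CRS and the highest Ctrl library raises the estimate by construction, so the turn of sign decides nothing.

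The same 2 libraries were the extremes for the striatal and central amygdala markers. The mean log2 level of these 19 genes relative to the Ctrl mean was -2.39, -0.48 and -0.40 in CRS 1 to 3 and 0.56, -0.39 and -0.17 in Ctrl 1 to 3, and 19 of the 19 had a log2 fold change below 0 (median -0.79, against a median of -0.0044 over all tested genes). Chrm4 spanned a smaller range, from -0.52 in CRS 1 to 0.23 in Ctrl 1 on the same scale. These extremes were not particular to the striatal list: the oligodendrocyte markers ran from -0.62 in CRS 1 to 0.42 in Ctrl 1. Adora2a, the adenosine receptor of striatal neurons, was at 0.718 CPM in CRS 1 and 82.4 CPM in Ctrl 1, and Isl1 was the only one of the 19 with a count of 0 in any library. In tissue RNA, fewer cells of a type and less RNA per cell cannot be told apart. The parts of neighbouring striatal tissue and of oligodendrocytes in the Chrm4 values were not tested.

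Chrm2, the M2 receptor and a presynaptic brake on acetylcholine release, was at 8.51, 10.6 and 9.72 CPM in CRS and 11.7, 11.7 and 9.08 CPM in Ctrl. CRS 1 was again the lowest, and Ctrl 3 lay inside the CRS range. The log2 fold change was -0.18 ± 0.15 (SE, 95% interval -0.52 to 0.17). In GENCODE M21, 142 bases of its exons (2.35%) lie opposite an exon of 9330158H04Rik on the other strand, and reads there cannot be assigned with certainty because the strand setting of the counting is not given.

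As shares of the counts of the 5 muscarinic genes in each library, Chrm1 made up 72.6, 73.3 and 70.8% in CRS 1 to 3 and 66.6, 72.0 and 71.1% in Ctrl 1 to 3. Chrm4 made up 8.82, 11.8 and 12.4% in CRS and 16.7, 11.7 and 12.8% in Ctrl. CRS 1 had the smallest share of Chrm4 and Ctrl 1 the largest, with the other 4 libraries between 11.7 and 12.8%. The number of Chrm4 counts per Chrm1 count was 0.122, 0.161 and 0.175 in CRS and 0.250, 0.162 and 0.181 in Ctrl.

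**Figure D3:**
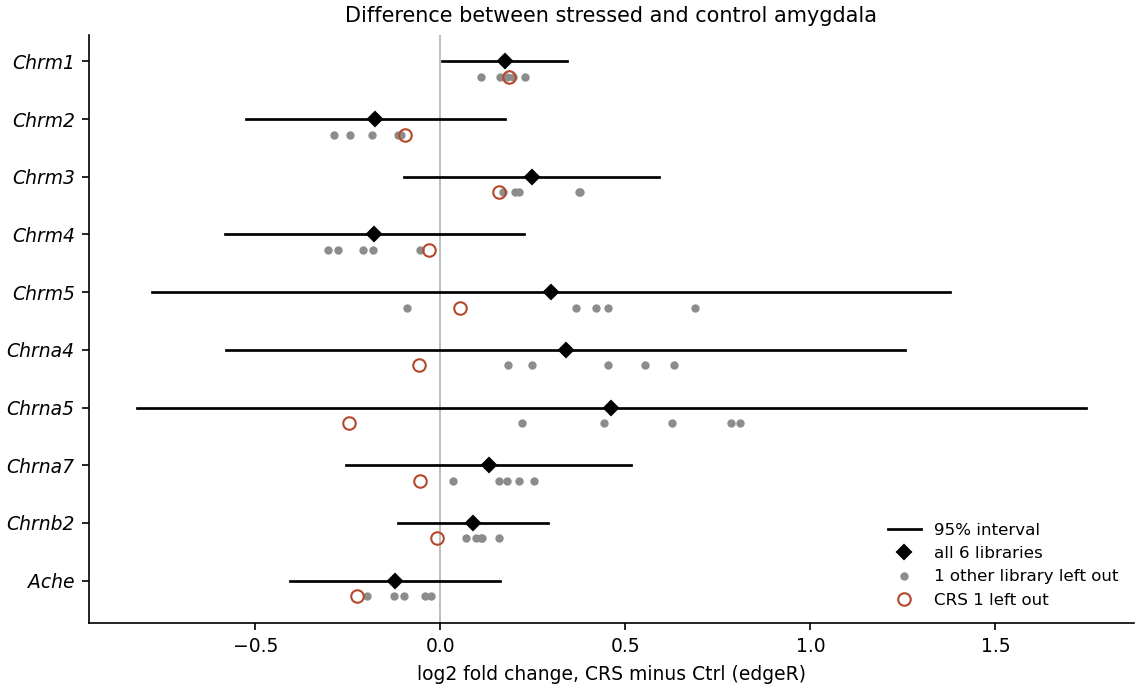
Log2 fold change, CRS minus Ctrl, of the 10 genes (black diamond) with its 95% interval (black line), and below each the values with 1 library left out (grey points, or a red ring for CRS 1). The interval includes 0 for 9 of the 10 genes, Chrm1 excepted. The 4 nicotinic subunits are below 0 without CRS 1, their highest library, whose removal lowers them by construction.

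The 4 nicotinic subunits all had a log2 fold change above 0, with a median of 0.23, and in all 4 the highest library was CRS 1. Other genes shared this in part: of the 16 Gi/o genes described below, 9 were highest and 2 lowest in CRS 1. Of the 12 Gq genes 4 were highest and 3 lowest there, and of the 8 chaperone and Ly6 genes 2 and 2. The share over all tested genes was not counted. Without CRS 1 all 4 nicotinic subunits were below 0, with Chrnb2 at -0.0077. Leaving out the highest CRS library lowers each estimate by construction, so the turn of sign decides nothing. Of all tested genes, 48.4% had a log2 fold change above 0. None of the 4 was called (adjusted p = 0.997 for each, edgeR).

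Chrna4, the alpha4 subunit, was at 54.4, 30.9 and 24.9 CPM in CRS 1 to 3 and at 25.2, 22.2 and 39.8 CPM in Ctrl 1 to 3. CRS 1 and Ctrl 3 were the high libraries, and CRS 3 lay below Ctrl 1. The means were 36.7 ± 15.6 CPM in CRS and 29.1 ± 9.42 CPM in Ctrl (SD, n = 3 each). CRS minus Ctrl came to 0.34 ± 0.37 on the log2 scale (SE, 95% interval -0.58 to 1.25), and -0.06 without CRS 1. The spread of Chrna4 between libraries was wide for its level: its biological coefficient of variation was 31.1%, against 13.4% for genes of similar level.

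Chrna5, an accessory subunit that joins alpha4 and beta2 and changes the properties of the channel, had the pattern of Chrna4 in CRS 1 and Ctrl 3. It was at 9.64, 4.12 and 2.48 CPM in CRS and 2.48, 3.78 and 5.51 CPM in Ctrl, from 94, 41 and 25 counts in CRS and 25, 39 and 54 in Ctrl. CRS 1 was 3.89 times as high as the lowest library, CRS 3, which is of the same group. The group means were 5.41 ± 3.75 CPM in CRS and 3.92 ± 1.52 CPM in Ctrl (SD, n = 3 each). CRS minus Ctrl came to 0.46 ± 0.54 on the log2 scale (SE, 95% interval -0.82 to 1.75), and -0.25 without CRS 1. Its biological coefficient of variation was 44.4%, against 24.0% for genes of similar level.

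Chrnb2, the beta2 subunit, was the steadiest of the 4. It was at 91.1, 73.0 and 78.0 CPM in CRS and at 77.8, 76.0 and 73.9 CPM in Ctrl. Outside CRS 1 its highest library was 1.07 times its lowest. CRS minus Ctrl came to 0.09 ± 0.09 on the log2 scale (SE, 95% interval -0.11 to 0.29), which bounds the fold between 0.924 and 1.22. In GENCODE M21, 1365 bases (16.3%) of Chrnb2 exons lie opposite exons of Adar, so part of its reads cannot be assigned with certainty.

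Chrna7, the subunit of the calcium-permeable alpha7 channel, was at 28.0, 21.1 and 18.5 CPM in CRS and 21.3, 22.7 and 17.8 CPM in Ctrl. Apart from CRS 1, the CRS values lay inside the Ctrl range. Its estimate on the log2 scale was 0.13 ± 0.17 (SE, 95% interval -0.25 to 0.52), and -0.05 without CRS 1.

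Because alpha4 and beta2 share a receptor, their counts were also set against each other within each library. There were 0.597, 0.423 and 0.319 Chrna4 counts per Chrnb2 count in CRS 1 to 3 and 0.324, 0.292 and 0.539 in Ctrl 1 to 3. The ratio was high in the same 2 libraries as Chrna4 itself, CRS 1 and Ctrl 3. Those were also the 2 libraries with the highest mean level of the glutamatergic markers, and CRS 1 was the highest library for 7 of these 10 markers. The part of this difference in tissue make-up in the nicotinic values was not tested.

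**Figure D4:**
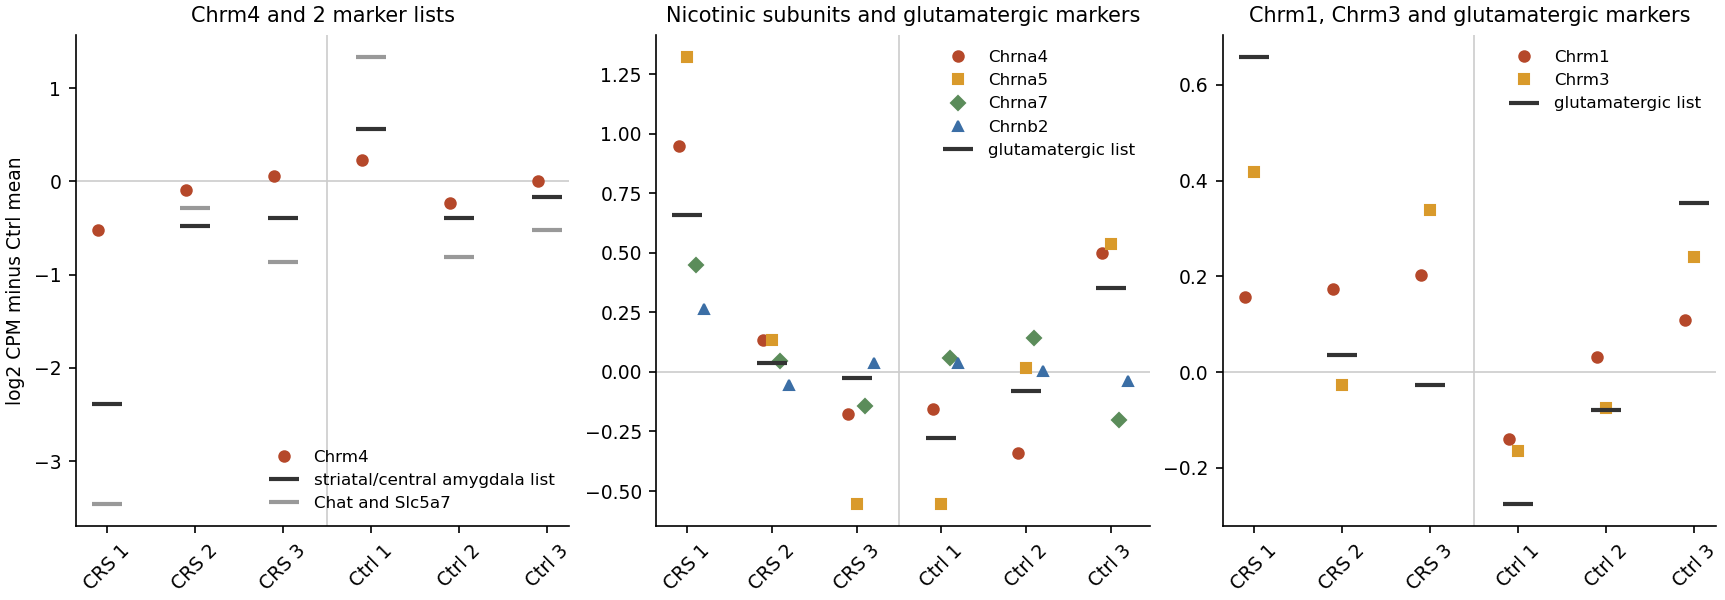
Log2 CPM relative to the Ctrl mean in each library, for Chrm4 beside 2 lists of markers (left), the nicotinic subunits beside the glutamatergic list (middle) and Chrm1 and Chrm3 beside that list (right); lists are means over their tested genes. CRS 1 is the lowest library for Chrm4 (-0.52) and for the striatal list (-2.39), and the highest for Chrna5 (1.32), Chrna4 (0.95) and the glutamatergic list (0.66).

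Ache, which hydrolyses acetylcholine in the synaptic cleft, was at 46.5, 39.7 and 36.2 CPM in CRS and 50.02, 39.0 and 44.2 CPM in Ctrl. The 2 groups overlapped, with Ctrl 1 highest and CRS 3 lowest. The means were 40.8 ± 5.26 CPM in CRS and 44.4 ± 5.50 CPM in Ctrl (SD, n = 3 each). The difference on the log2 scale was -0.12 ± 0.12 (SE, 95% interval -0.41 to 0.16; adjusted p = 0.997, edgeR), which bounds the fold between 0.755 and 1.12. Red blood cells also carry this enzyme, and the 5 markers of red blood cells summed to 54.7 to 58.2 CPM in CRS and 59.3 to 112 CPM in Ctrl. Of these markers, Hba-a1 and Hba-a2 had identical counts in every library, so the same value entered the sum under both names. The part of red blood cells in the Ache values was not tested. In GENCODE M21, 98 bases of Ache exons (2.12%) lie opposite Gm42456, also without a row in the counts.

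Of the 10 genes, 3 varied most over the libraries on the log2 scale, and for these the genes with the most similar profile over the 6 libraries were found among 14615 genes with a mean of at least 1 CPM. For Chrna5 they were Cbln1, Nr4a2 and Galnt9, whose centred log2 levels differed from those of Chrna5 by a root mean square of 0.16, 0.17 and 0.18. For Chrna4 they were Hivep1, Cdc25b and 2900026A02Rik, at 0.08, 0.09 and 0.11. For Chrm5 the nearest were Rnu2-10, Gm22496 and Klk8, at 0.24, 0.26 and 0.27, the widest distances of the 3. With 6 libraries these are descriptions only.

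The genes of the cholinergic neuron itself had few reads; the cell bodies of these neurons are known to lie mostly outside the basolateral amygdala. Chat, which makes acetylcholine, had 0, 28 and 16 counts in CRS 1 to 3 and 78, 14 and 21 in Ctrl 1 to 3. The 0 in CRS 1 allows a level of up to 0.308 CPM. Slc5a7, the choline transporter of cholinergic terminals and cell bodies, had 10, 64 and 48 counts in CRS and 236, 62 and 58 in Ctrl. Slc18a3, which loads acetylcholine into vesicles, had 1, 11 and 3 counts in CRS and 21, 6 and 7 in Ctrl and was too low to be tested. In all 3 genes Ctrl 1 was the highest library and CRS 1 the lowest, as for Chrm4 and for the markers of the striatum, a tissue with cholinergic neurons of its own, whose part in these counts was not tested. The log2 fold change was -1.34 ± 1.09 (SE) for Chat and -1.53 ± 0.83 for Slc5a7. Without Ctrl 1 it was -0.24 for Chat and -0.54 for Slc5a7. Without both CRS 1 and Ctrl 1 it was 0.33 for Chat and -0.09 for Slc5a7. As for Chrm4, leaving out the lowest CRS and the highest Ctrl library raises the estimate by construction, so these values decide nothing. With any 1 library left out the log2 fold change ran from -2.20 to -0.24 for Chat and from -2.005 to -0.54 for Slc5a7. Both were lowest without CRS 2.

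Of 5 factors of basal forebrain cholinergic neurons, 2 could be tested. Isl1, a transcription factor that the striatal list also holds, was at -1.71 ± 0.97 on the log2 scale, with 0, 30 and 13 counts in CRS and 82, 39 and 22 in Ctrl. The neurotrophin receptor gene Ngfr was at -0.93 ± 0.61. With 1 library left out, Isl1 ran from -2.83 (without CRS 2) to -1.06 (without Ctrl 1) and Ngfr from -1.75 (without CRS 2) to -0.39 (without Ctrl 1). Lhx8 and Gbx1 were too low to be tested, and both were listed at 0 in CRS 1.

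The other 12 nicotinic subunits were near the limit of detection. Only Chrna10 passed the filter, at 1.27 ± 0.333 CPM in CRS and 1.81 ± 0.365 CPM in Ctrl (SD, n = 3 each), or -0.51 ± 0.32 (SE) on the log2 scale. Chrna9, Chrnd and Chrng had 0 counts in all libraries, and the other 8 averaged less than 1 CPM. Among these were Chrna3 and Chrnb4, the subunits of autonomic ganglia and the medial habenula, at means of 0.448 and 0.247 CPM over all libraries.

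Nicotinic receptors also depend on chaperones and on small proteins of the Ly6 family that bind them. Of 8 such genes 0 were called in either direction, 4 were above and 4 below 0, with a median log2 fold change of -0.03. Lypd1 was the widest, at 104 to 518 CPM in CRS and 342 to 584 CPM in Ctrl. Its log2 fold change was -0.39 ± 0.65 (SE), and 0.06 without CRS 1, its lowest library, whose removal raises the estimate by construction. Lynx1, whose product lowers the sensitivity of nicotinic receptors, was at 249 ± 30.3 CPM in CRS and 277 ± 29.0 CPM in Ctrl (SD, n = 3 each), or -0.15 ± 0.11 (SE) on the log2 scale. Lypd6 and Lypd6b were at 0.14 ± 0.09 and 0.16 ± 0.11. Bche, the second cholinesterase, was at 3.79 ± 0.995 CPM in CRS and 4.67 ± 0.862 CPM in Ctrl, or -0.30 ± 0.25 on the log2 scale, and the anchor genes of cholinesterase, Prima1 and Colq, were too low to be tested.

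Downstream of the muscarinic receptors, 0 of 12 genes of the Gq arm and 0 of 16 genes of the Gi/o arm were called. In the Gq arm 7 were above and 5 below 0 (median 0.05). Plcb4, a phospholipase C activated by Gq, was at -0.35 ± 0.17 (SE) on the log2 scale. In the Gi/o arm 11 were above and 5 below 0 (median 0.07). Its 2 genes with the smallest p were Rgs4 and Rgs8, both of which speed up the switching-off of G proteins. Rgs4 was at 260 ± 42.7 CPM in CRS and 336 ± 46.8 CPM in Ctrl (SD, n = 3 each), or -0.37 ± 0.14 on the log2 scale (SE; the 95% interval ran from -0.71 to -0.03). Rgs8 was at -0.26 ± 0.12. Over all pathway lists, 42 of 59 genes were tested. Of these 42, 0 were called, 1 had an unadjusted p under 0.05 (Rgs4), and 0 had groups that did not overlap, against 3.29% and 8.28% of all tested genes.

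**Figure D5:**
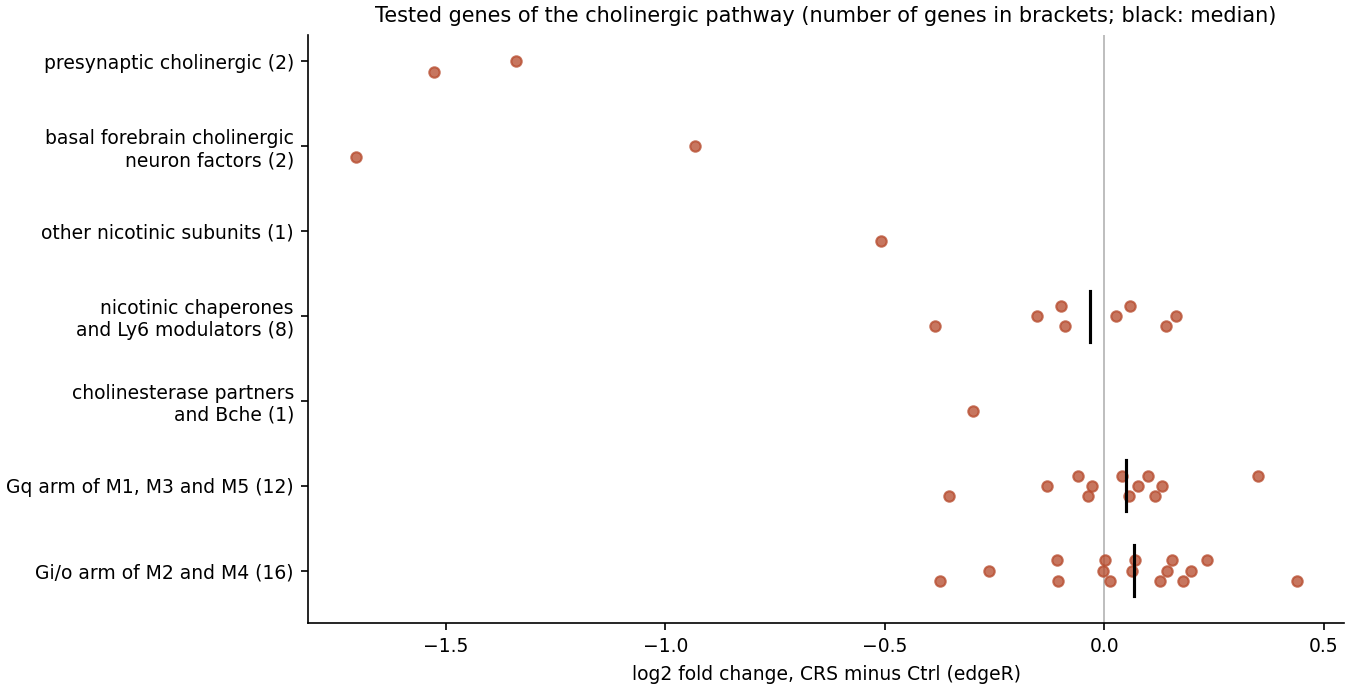
Log2 fold change, CRS minus Ctrl, of each tested gene of the cholinergic pathway lists (red points), with the median of lists of at least 3 tested genes (black bars). Genes of the receptor signalling arms lie between -0.37 (Rgs4) and 0.44 (Adcy8), and the lowest points are Isl1, Slc5a7 and Chat.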

How the data were processed

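Per the labels, libraries were prepared from total RNA of dissected basolateral amygdala with a stranded kit that removes ribosomal RNA, then pooled and sequenced as single-end reads over several lanes. Each library's deposited file gives whole-number counts for gene symbols, without normalization or pooling. Tools listed in the submitters' processing notes, without roles, are edgeR 3.42.4, HTSeq 0.13.5, STAR 2.7.7a and FastQC 0.12.1, with the build mm39; the sources used here give neither annotation nor strand setting. Rows of reads without a gene entered neither library sizes nor tests (53.0 to 57.4% no feature, 6.97 to 8.16% not unique, 0.162 to 0.194% ambiguous).

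Computed here in R 4.3.3: filterByExpr (minimum count 10, minimum total 15) kept 14739 genes, TMM factors were 0.983 to 1.02, and edgeR 4.0.16's robust quasi-likelihood F test compared CRS with Ctrl, adjusted by Benjamini-Hochberg over all tested genes at 0.05. Each SE is the size of the log2 estimate divided by the root of its F. CPM uses TMM-scaled library sizes; log2 CPM has a prior count of 2. Lengths are exons of GENCODE M21 transcripts with a RefSeq counterpart. No 2 libraries agreed within sampling noise (lowest chi-square per gene 2.96). Alternatives used DESeq2 1.42.0, limma 3.58.1, other scalings, no filter, a replicate block and left-out libraries.

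The members and lists were chosen with earlier results of these data known. Named genes were the members, 6 fixed pathway genes, the 2 genes of smallest p per pathway list, the 3 nearest profiles of the 3 widest members, and marker genes. Slc17a7, Adora2a, Chrna3, Chrnb4, Prima1, Colq, Lhx8, Gbx1, Chrnd, Chrng, Chrna9, Adcy8, Hba-a1 and Hba-a2 were named after their values were seen. Some genes that enter the counts of the lists are not reported here by name.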

Additional observations from a re-analysis of the deposited data

How the results depend on the processing

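None of the 10 genes was called in the main test or in any of 15 other settings, where their smallest adjusted p was 0.771. Over all genes the count was 0, and 2 with DESeq2 (Hpca and Ndst4) and 0 to 1 with 1 library left out (Rn18s without Ctrl 3). With the replicate number as a block it was 0, and Chrm1 was at 0.18; same-numbered libraries did not deviate together in all pairs (correlations -0.32, 0.53 and 0.28), so the number was not read as a pairing. In turn without each 1 library, the log2 fold change was 0.11 to 0.23 for Chrm1, -0.29 to -0.10 for Chrm2, 0.16 to 0.38 for Chrm3, -0.30 to -0.03 for Chrm4, -0.090 to 0.69 for Chrm5, -0.058 to 0.63 for Chrna4, -0.25 to 0.81 for Chrna5, -0.054 to 0.25 for Chrna7, -0.0077 to 0.16 for Chrnb2, -0.23 to -0.02 for Ache and -0.70 to 0.057 for Lypd1. Without Ctrl 1 and CRS 1 the sign turned for Chrm4 (0.091), Chrna4 (-0.15), Chrna5 (-0.49), Chrna7 (-0.028), Chat (0.33) and Lypd1 (0.22). CRS 1 was the highest or the lowest library for each of these genes, so leaving it out moves the estimate by construction. Without the 3 libraries with high Ttr, Ctrl 3 was left as the only control, assumed to vary like the CRS libraries. The sign then turned for Chrm2 (0.0077) and Chrna4 (-0.0060), and Chrm5 was at 1.87. Of the order of levels per length, 2 of 10 ranks were kept without division by length, 1 with coding length and 5 with exons of the basic transcript set, a choice added after seeing the data, and 10 with any 1 library left out. Scaling by RLE or by library size alone turned no sign. Depth limits Chrm5 and Chrna5, whose counting error is 17.2% and 14.7% of a library's mean count.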
